A study of Homo sapiens with 10 samples.

Results

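The melanoma antigen (MAGE) genes were chosen by their names, and the family was proposed with the knockout against parental contrast of these samples already known. The rule took every gene named MAGEA to MAGEH with a number and an optional B, together with MAGEL2, NDN and NSMCE3. It found 37 members among the 62700 genes of the deposited table, of which 26 belonged to the germline-restricted MAGEA, MAGEB and MAGEC subfamilies and 11 to the widely expressed remainder. In all, 33 members lie on chromosome X, MAGEF1 lies on chromosome 3, and MAGEL2, NDN and NSMCE3 lie on chromosome 15.

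Polyadenylated RNA was sequenced from 5 samples of RPE p53-/- cells carrying a CCAR1 knockout and from 5 samples of the parental RPE p53-/- cells. RPE cells are a human line of retinal pigment epithelial origin, CCAR1 encodes a transcriptional coactivator, and loss of p53 was shared by both genotypes. The comparison asked which transcripts differ genome-wide when CCAR1 is knocked out. The labels do not say whether the replicates were separate cultures or whether the knockout line is 1 clone, so p-values reflect only the variation among these 10 libraries, which could be technical. Whatever else distinguishes the knockout line from the parental one is also part of each difference.

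MAGE proteins share a MAGE homology domain, and several of them bind RING-type E3 ubiquitin ligases and help select what those ligases modify. The MAGEA, MAGEB and MAGEC genes are normally transcribed mainly in the testis, are kept silent in other adult tissues in large part by promoter DNA methylation, and are the founding cancer-testis antigens because many tumours transcribe them. The MAGED to MAGEH genes, NDN, MAGEL2 and NSMCE3 are transcribed in many tissues; NDN and MAGEL2 are imprinted and belong to the Prader-Willi region of chromosome 15.

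The promoter windows of 4 members are shown first, because these members span the patterns in the data. MAGEA11 was present in knockout cells and near 0 in parental cells, MAGEC2 had the opposite order, MAGEA3 was low in both, and MAGED4 stands for the widely expressed class. Each window is the RefSeq sequence (GRCh38.p14) from 250 bases before to 50 bases after an annotated start, read 5′ to 3′ on the gene's strand, and capitals mark CpG dinucleotides. The MAGEA11 window is chrX:149711810-149712109 on the plus strand, inside the span that GENCODE v29 gives the gene (149688228 to 149717266). The MAGEC2 window is chrX:142205241-142205540 on the minus strand, the MAGEA3 window chrX:152698544-152698843 on the plus strand, and the MAGED4 window chrX:52184638-52184937 on the plus strand.
MAGEA11: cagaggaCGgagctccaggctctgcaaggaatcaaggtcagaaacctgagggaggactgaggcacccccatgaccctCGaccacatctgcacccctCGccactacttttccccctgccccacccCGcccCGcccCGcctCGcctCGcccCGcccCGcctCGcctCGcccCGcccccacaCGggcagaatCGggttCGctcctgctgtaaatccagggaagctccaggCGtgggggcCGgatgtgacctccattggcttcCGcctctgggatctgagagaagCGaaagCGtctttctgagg
MAGEC2: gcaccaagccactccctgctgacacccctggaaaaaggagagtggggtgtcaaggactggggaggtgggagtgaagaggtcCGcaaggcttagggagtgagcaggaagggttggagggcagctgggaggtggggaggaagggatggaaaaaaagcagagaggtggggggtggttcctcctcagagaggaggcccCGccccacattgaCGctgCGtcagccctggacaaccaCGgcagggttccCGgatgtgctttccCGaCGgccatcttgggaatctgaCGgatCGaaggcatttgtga
MAGEA3: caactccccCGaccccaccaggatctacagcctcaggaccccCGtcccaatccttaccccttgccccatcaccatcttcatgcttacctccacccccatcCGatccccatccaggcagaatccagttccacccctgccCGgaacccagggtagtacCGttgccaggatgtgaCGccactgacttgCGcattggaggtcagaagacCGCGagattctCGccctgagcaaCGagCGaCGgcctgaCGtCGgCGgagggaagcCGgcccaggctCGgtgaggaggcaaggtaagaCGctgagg
MAGED4: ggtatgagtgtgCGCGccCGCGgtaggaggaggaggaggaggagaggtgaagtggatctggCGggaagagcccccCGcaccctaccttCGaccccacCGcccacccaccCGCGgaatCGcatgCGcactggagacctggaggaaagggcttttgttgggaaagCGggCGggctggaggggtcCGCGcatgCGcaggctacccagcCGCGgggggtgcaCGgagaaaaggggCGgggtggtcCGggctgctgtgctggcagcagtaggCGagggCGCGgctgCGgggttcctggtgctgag

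These windows held 21 CpG dinucleotides in MAGEA11, 10 in MAGEC2, 19 in MAGEA3 and 26 in MAGED4. RefSeq gave 31 windows for 23 of the 26 germline-restricted genes and 13 windows for 10 of the 11 widely expressed genes, since some genes have several starts. MAGEA1, MAGEA10, MAGEB17 and MAGEH1 had no window. The median was 12 CpG per window in the germline-restricted class (1 to 21) and 20 in the widely expressed class (9 to 35), against 14 over all 35116 windows of the genome. The MAGEA11 window therefore had a CpG count at the top of its class, a value it shared with MAGEB2. The MAGEC2 window had a count below the median of its class. Which start the MAGEA11 transcripts of knockout cells came from was not tested.

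Short motifs were searched on both strands, where matches to 1 motif can share letters with each other. The GC box GGGCGG, the letters recognised by the Sp family, was found in 41.9% of germline-restricted windows and 84.6% of widely expressed windows, against 45.0% of all windows. The MAGEA11 window held 4 matches and the MAGED4 window 3. The letters GCATGCGC, a core of NRF1 recognition sequences, were found in none of the germline-restricted windows and in 30.8% of widely expressed windows, against 3.05% of all windows. The 4 windows with this match belonged to MAGED1, MAGED4 and MAGED4B, and MAGED4 and MAGED4B are near-identical copies whose windows are not independent. The letters CCGGAA, 1 form of the ETS recognition sequence, were found in 12.9%, 23.1% and 17.2% of germline-restricted, widely expressed and all windows. Other forms were not counted, such as the CCGGAT in the MAGEA11 and MAGEC2 windows. These shares therefore do not give how many windows hold an ETS site. The cyclic AMP response element TGACGTCA was found in 6.45%, 0% and 1.85% of the same sets. Its 2 germline-restricted windows, of MAGEA9 and MAGEA9B, are identical in sequence and so not independent. The same holds for the windows of MAGEA3 and MAGEA6, which both count towards the CCGGAA share. The E-box CACGTG was found in no MAGE window and in 7.26% of all windows. These matches describe the letters of the windows only, and the motifs were chosen after the sequences had been seen.

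**Figure D1:**
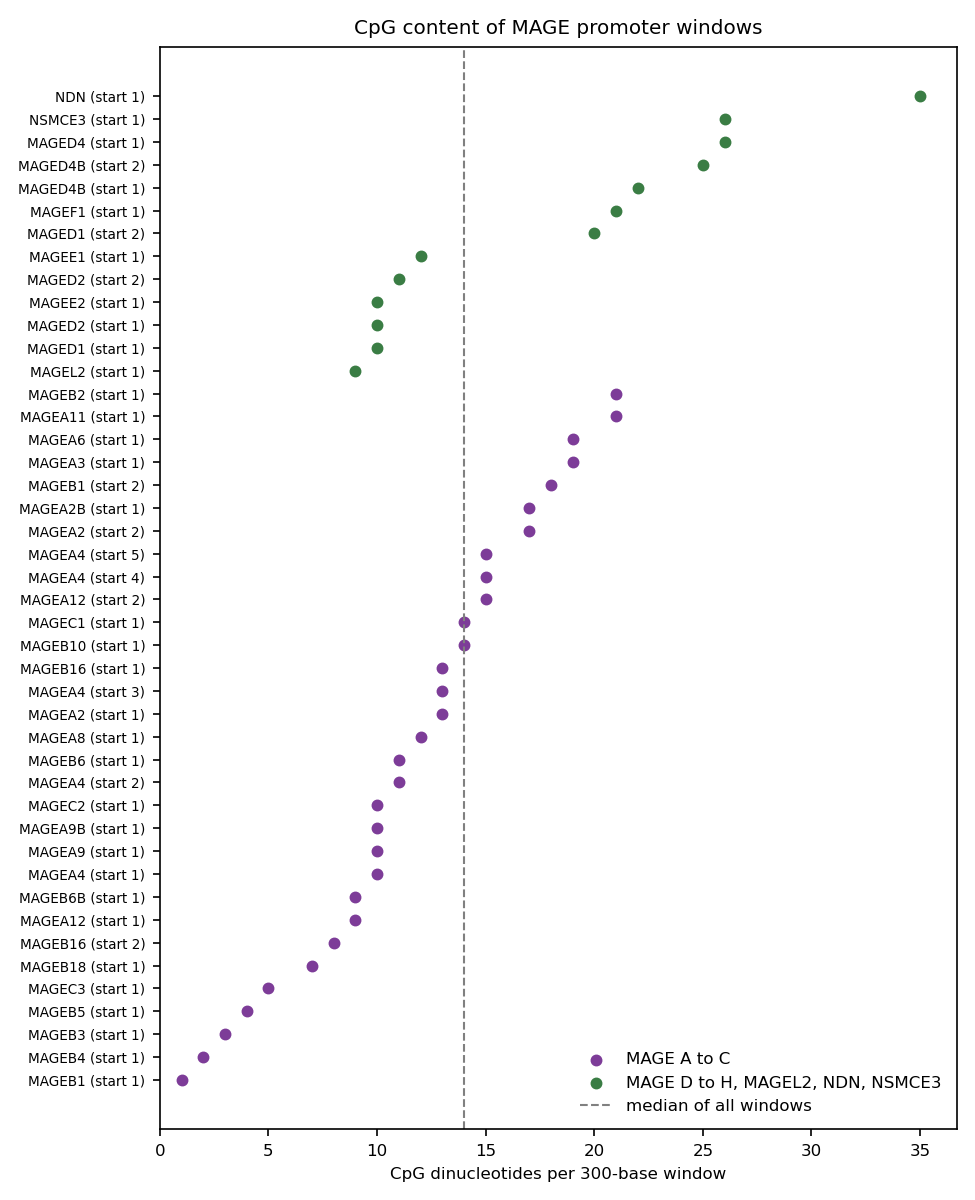
CpG dinucleotides per 300-base RefSeq promoter window for each annotated start of the MAGE genes, with germline-restricted genes in purple, widely expressed genes in green and the median of all windows (14) as a dashed line. The widely expressed genes reach 35 (NDN), whereas no germline-restricted window exceeds 21.

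The 10 libraries differed widely in depth. Replicates 1 to 3 held 52595742 to 56393628 estimated counts in knockout cells and 57298627 to 65202282 in parental cells, whereas replicates 4 and 5 held 320578921 and 324763369 in knockout cells and 327114801 and 385449633 in parental cells. The shallow and deep libraries also differed in markers of other cell types: 8 skeletal muscle markers summed to 213 to 484 CPM (counts per 1000000 counts of the scaled library) in shallow and 8.08 to 8.33 CPM in deep knockout libraries, and to 407 to 547 CPM in shallow and 7.07 to 7.62 CPM in deep parental libraries. Erythroid markers (6 genes) and liver markers (6 genes) were likewise above 20 CPM in all shallow libraries and below 4 CPM in all deep ones, and 4 melanocyte markers summed to at most 1.64 CPM. Members are therefore also given within each depth, and the part of these transcripts in the MAGE values was not tested. CCAR1 itself had 88.5 to 125.7 CPM in knockout and 125.4 to 173.4 CPM in parental libraries (log2 fold change -0.48, SE 0.14, adjusted p = 0.0201), a lower level with ranges that met at their edges. Of 12 retinal pigment epithelium markers, MITF averaged 38.3 CPM in knockout and 39.1 CPM in parental cells and OTX2 averaged 16.6 and 10.9 CPM, while RPE65, TYR, DCT and RLBP1 were each below 0.2 CPM in all libraries. Summed over the list, the markers stood at 57.7 to 60.5 CPM in shallow knockout and 54.2 to 55.5 CPM in shallow parental libraries, and at 73.8 to 73.9 CPM in deep knockout and 64.8 to 66.3 CPM in deep parental libraries. Their sum was higher in knockout cells at each depth. OTX2, BEST1 and LRAT were called higher among the 7 tested, against 19.7% of all genes tested. The others were mixed, and none of them was called. TYRP1 (0.0443 CPM in knockout and 0.173 CPM in parental cells), RPE65, TYR, SERPINF1 and MITF had lower means in knockout cells. MERTK, PMEL, DCT and RLBP1 had higher ones. The 8 germ cell markers summed to 0.173 to 0.279 CPM in shallow knockout and 0.409 to 0.654 CPM in shallow parental libraries, and to 0.508 to 0.553 CPM in deep knockout and 0.638 to 0.685 CPM in deep parental libraries. This sum was lower in knockout cells at each depth, mostly through ACRV1, which was tested and called lower (mean 0.224 CPM against 0.471 CPM in parental cells). SYCP3 was similar in both (0.0949 and 0.0978 CPM). DDX4, DAZL, PRM1, PRM2 and TNP1 went the other way, with at most 9 counts each in knockout libraries and 0 in parental ones. UTF1 was at 0 in all 10 libraries.

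Of the 37 members, 10 passed the low-count filter, namely 3 of the 26 germline-restricted genes (MAGEA3, MAGEA11 and MAGEC2) and 7 of the 11 widely expressed genes (MAGED1, MAGED2, MAGED4, MAGED4B, MAGEF1, MAGEH1 and NSMCE3). In edgeR's quasi-likelihood fit across 18979 genes, with Benjamini-Hochberg adjustment at 0.05, 9 of these 10 were called higher in knockout cells and 1, MAGEC2, was called lower. Over all genes tested, 19.7% were called higher and 16.9% lower. Every knockout library was above every parental one for 8 of the 10 and below for MAGEC2, against 16.0% and 14.6% of all genes tested. The median log2 fold change was 0.77 over the 3 germline-restricted genes that passed and 1.21 over the 7 widely expressed ones, against 0.0166 over all genes tested. These counts and medians describe members chosen with this contrast known, and a gene near 0 in 1 genotype passed the filter only through the other, so nothing is read from them about the family.

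The 7 widely expressed members that passed were higher in knockout cells, with fold changes that differed among them. MAGED1, an adaptor of the p75 neurotrophin receptor and a partner of the ligase PJA1, was the most abundant. It had 303, 308, 298, 301 and 298 CPM in knockout replicates 1 to 5, against 165, 166, 167, 170 and 169 CPM in parental replicates 1 to 5. Every knockout library was above every parental one, and the libraries of a genotype lay close together (301.8 ± 4.30 against 167.2 ± 2.09 CPM, SD, n = 5 each; log2 fold change 0.85, SE 0.04). MAGED2, known for its part in salt reabsorption by the fetal kidney, had 89.1, 93.7, 95.9, 90.7 and 90.4 CPM in knockout replicates, against 71.1, 75.2, 68.9, 69.9 and 73.4 CPM in parental replicates. The groups did not overlap, and its log2 fold change of 0.36 (SE 0.05) was the smallest among the members that passed.

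MAGEH1, a small relative that also binds the p75 neurotrophin receptor, had 18.4, 19.9, 18.6, 16.4 and 15.9 CPM in knockout replicates, against 6.0, 5.46, 5.15, 5.31 and 5.10 CPM in parental replicates. All 5 knockout libraries were far above the parental ones, with a log2 fold change of 1.72 (SE 0.09), or 3.30-fold. In the deep libraries alone MAGED4B had the larger log2 fold change, 1.79 against 1.62 for MAGEH1. MAGEH1 shares no 31-base stretch of its transcripts with another gene. MAGEF1, which directs the iron-sulfur assembly protein MMS19 to degradation through the ligase NSMCE1, had 65.3, 69.2, 72.8, 58.2 and 57.6 CPM in knockout replicates, against 41.3, 41.0, 44.8, 37.5 and 39.0 CPM in parental replicates. The groups did not overlap, and in both genotypes the 2 deep libraries were the lowest (log2 fold change 0.67, SE 0.08).

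NSMCE3 encodes a subunit of the SMC5/6 complex, which acts in DNA repair. It had 23.7, 27.3, 24.2, 19.3 and 18.1 CPM in knockout replicates, against 10.5, 9.60, 10.1, 9.52 and 9.12 CPM in parental replicates. Every knockout library was above every parental one, and the deep knockout libraries were lower than the shallow ones (log2 fold change 1.21, SE 0.11). NSMCE3 lies within the annotated span of ENTREP2 on the same strand, and ENTREP2, which was added after its values were seen, had 2.51 ± 0.249 CPM in knockout cells and 0.0203 ± 0.0129 CPM in parental cells (SD, n = 5 each; log2 fold change 6.72, SE 0.32, edgeR adjusted p = 1.77e-07). How far reads from ENTREP2 entered the NSMCE3 counts was not tested.

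MAGED4 and MAGED4B are near-identical copies on chromosome X: 99.3% of the 31-base stretches in MAGED4 transcripts also occur in MAGED4B, so the split of reads between them is uncertain. MAGED4 had 8.06, 8.39, 7.52, 7.74 and 6.36 CPM in knockout replicates, against 2.81, 2.97, 3.36, 2.97 and 2.48 CPM in parental replicates. MAGED4B had 5.02, 5.09, 4.55, 2.51 and 3.41 CPM in knockout replicates, against 2.07, 1.61, 1.91, 0.612 and 1.10 CPM in parental replicates. Neither gene's groups overlapped, and the MAGED4B values were lowest in the deep libraries of both genotypes. The pair summed to 11.7 ± 1.66 CPM in knockout cells and 4.38 ± 0.766 CPM in parental cells (SD, n = 5 each; log2 fold change 1.42, SE 0.14), close to the log2 fold changes of 1.38 (SE 0.11) for MAGED4 and 1.51 (SE 0.33) for MAGED4B alone.

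**Figure D2:**
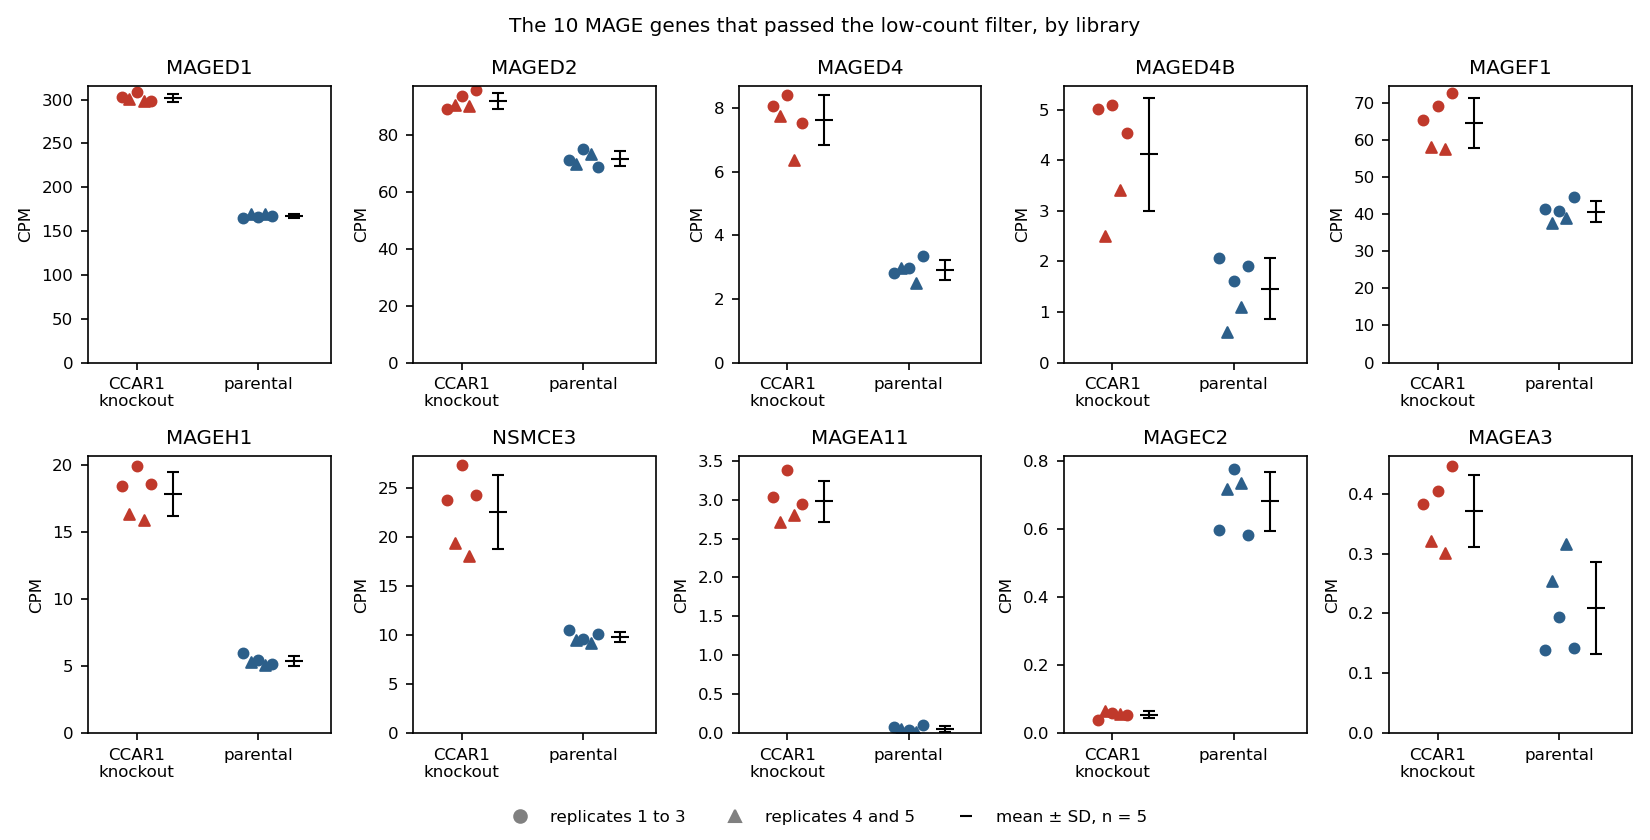
CPM of the 10 MAGE genes that passed the low-count filter in each library, CCAR1 knockout in red and parental in blue, with circles for replicates 1 to 3, triangles for replicates 4 and 5, and bars for the mean ± SD (n = 5). The genotypes are separate in 9 panels and overlap for MAGEA3, where the deep parental libraries reach 0.254 and 0.316 CPM.

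The other 4 widely expressed members were close to 0 in both genotypes. NDN, the imprinted growth suppressor necdin, had 0.0180 to 0.130 CPM in knockout and 0 to 0.0793 CPM in parental libraries. MAGEE1, a component of the dystrophin-associated complex in muscle, had 0.0149 to 0.0931 CPM in knockout and 0.00793 to 0.124 CPM in parental libraries. MAGEL2, which works with the ligase TRIM27 in endosomal sorting, had 3 counts in all knockout libraries together and 0 in the parental ones, where 0 counts allow up to 0.00343 CPM over the group. MAGEE2 had 0 counts in every library. So 4 of the 11 genes of the widely expressed class were at or near 0 in these cells.

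Among the germline-restricted genes, MAGEA11 and MAGEC2 differed most, in opposite directions. MAGEA11, known as a coregulator of the androgen receptor, had 3.03, 3.39, 2.95, 2.71 and 2.81 CPM in knockout replicates, against 0.0787, 0.0353, 0.106, 0.0502 and 0.00942 CPM in parental replicates. All 5 knockout libraries held a similar level, whereas the parental values rested on 5, 2, 6, 19 and 3 counts. The log2 fold change was 5.95 (SE 0.47), or 62.0-fold, and only 2.93% of the 31-base stretches in MAGEA11 transcripts occur in another gene. Its size varied with the few parental counts, and on the log2 scale it was 5.36 from shallow libraries and 6.42 from deep ones.

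MAGEC2, a partner of the ligase TRIM28, had 0.0372, 0.0577, 0.0539, 0.0642 and 0.0565 CPM in knockout replicates, against 0.598, 0.777, 0.583, 0.719 and 0.738 CPM in parental replicates. Every knockout library was below every parental one, and all 10 were below 1 CPM, with 49 counts over the knockout group and 622 over the parental group. The log2 fold change was -3.60 (SE 0.19), or 12.1-fold lower in knockout cells, with -3.67 from shallow libraries and -3.60 from deep ones. Its neighbour MAGEC3 did not pass the filter. It had 0, 0, 0, 3 and 3 counts in knockout replicates, against 4, 5, 0, 25 and 20 counts in parental replicates, and was called lower when the deep libraries were fitted alone (log2 fold change -2.83).

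MAGEA3, a close relative of MAGEA6 that binds TRIM28, had a difference that varied with library depth. It had 0.383, 0.404, 0.447, 0.322 and 0.302 CPM in knockout replicates, against 0.138, 0.194, 0.141, 0.254 and 0.316 CPM in parental replicates. The groups overlapped, since the highest parental library was above the lowest knockout library. The log2 fold change was 0.77 (SE 0.26) over all libraries, 1.37 (SE 0.36) over shallow libraries and 0.11 (SE 0.19) over deep ones, and MAGEA3 was no longer called with the replicate number as a block. MAGEA3 shares 67.9% of its 31-base stretches with MAGEA6, and MAGEA6 took 0% to 6.42% of the pair in shallow and 33.1% to 39.2% in deep knockout libraries, and 0% to 15.4% in shallow and 41.4% to 45.5% in deep parental libraries. The sum of the pair was 0.452 ± 0.0422 CPM in knockout cells and 0.307 ± 0.184 CPM in parental cells (SD, n = 5 each), with a log2 fold change of 0.50 (SE 0.36) that was not called.

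**Figure D3:**
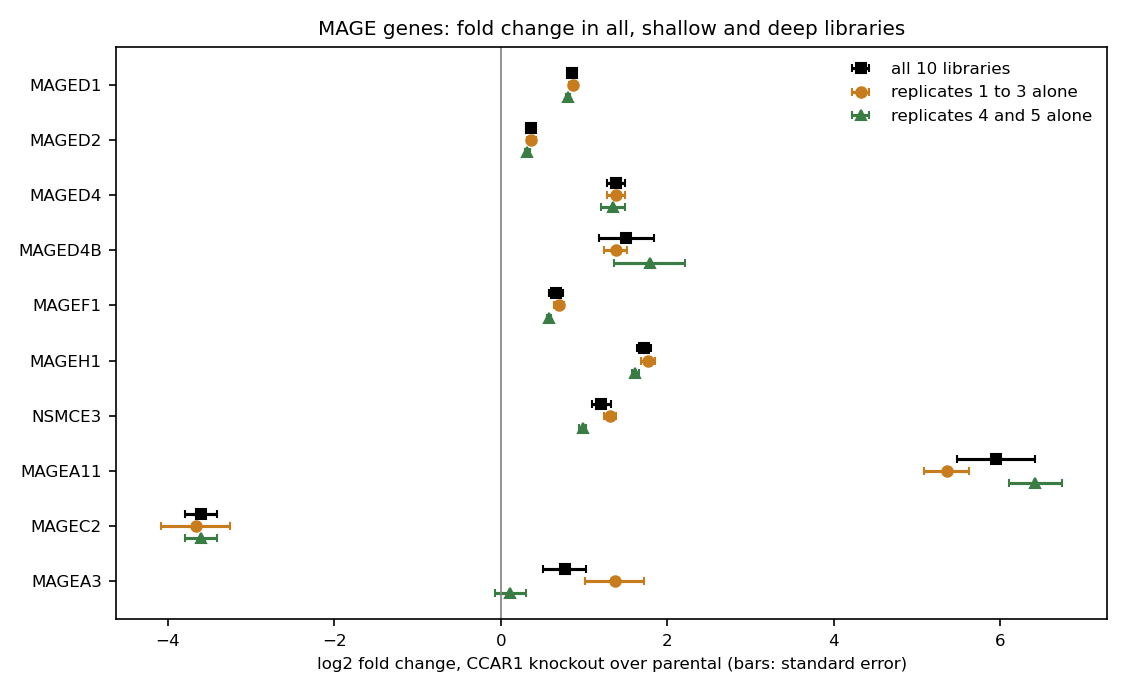
Log2 fold change (CCAR1 knockout over parental, bars for the standard error) of the 10 MAGE genes that passed the filter, from all 10 libraries (black squares), replicates 1 to 3 alone (orange circles) and replicates 4 and 5 alone (green triangles). MAGEA11 lies at 5.95 and MAGEC2 at -3.60 over all libraries, and MAGEA3 has 1.37 from replicates 1 to 3 and 0.11 from replicates 4 and 5.

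The remaining 23 germline-restricted genes did not pass the filter; 5 of them (MAGEA4, MAGEB1, MAGEB5, MAGEB6B and MAGEB18) had 0 counts in all libraries and the other 18 stayed at or below a mean of 0.196 CPM. MAGEA1, the first MAGE gene to be cloned, was the highest of them, with 0.0758 to 0.305 CPM in knockout and 0.0872 to 0.346 CPM in parental libraries. Its values overlapped and were highest in shallow libraries of both genotypes. MAGEA6 had 0 to 0.0263 CPM in shallow and 0.159 to 0.195 CPM in deep knockout libraries, and 0 to 0.0353 CPM in shallow and 0.212 to 0.224 CPM in deep parental libraries. MAGEA12 had 0.0186 to 0.0539 CPM in shallow and 0.131 to 0.166 CPM in deep knockout libraries, and 0 to 0.0177 CPM in shallow and 0.151 to 0.154 CPM in deep parental libraries. For both genes every deep library was above every shallow one, in both genotypes. Within a depth, MAGEA6 was lower in the deep knockout libraries than in the deep parental ones, and MAGEA12 was higher in the shallow knockout libraries than in the shallow parental ones. Those shallow MAGEA12 values rest on 1, 2 and 3 counts in knockout and 1, 0 and 1 counts in parental replicates, too few to give a direction. Neither gene passed the filter over all libraries, and neither was called when the deep libraries were fitted alone. MAGEB2 had counts in 1 deep knockout library and in both deep parental ones (0.0554 CPM against 0.0816 and 0.0872 CPM), and 0 in all 6 shallow libraries. MAGEA10 had 0 to 0.0592 CPM in knockout and 0.0177 to 0.0884 CPM in parental libraries. A count of 0 in all libraries of a genotype allows up to 0.00357 CPM in knockout and 0.00343 CPM in parental cells, from 3 counts over the group and for counting error only. In bulk RNA, a low level in all cells and a higher level in few cells cannot be told apart.

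**Figure D4:**
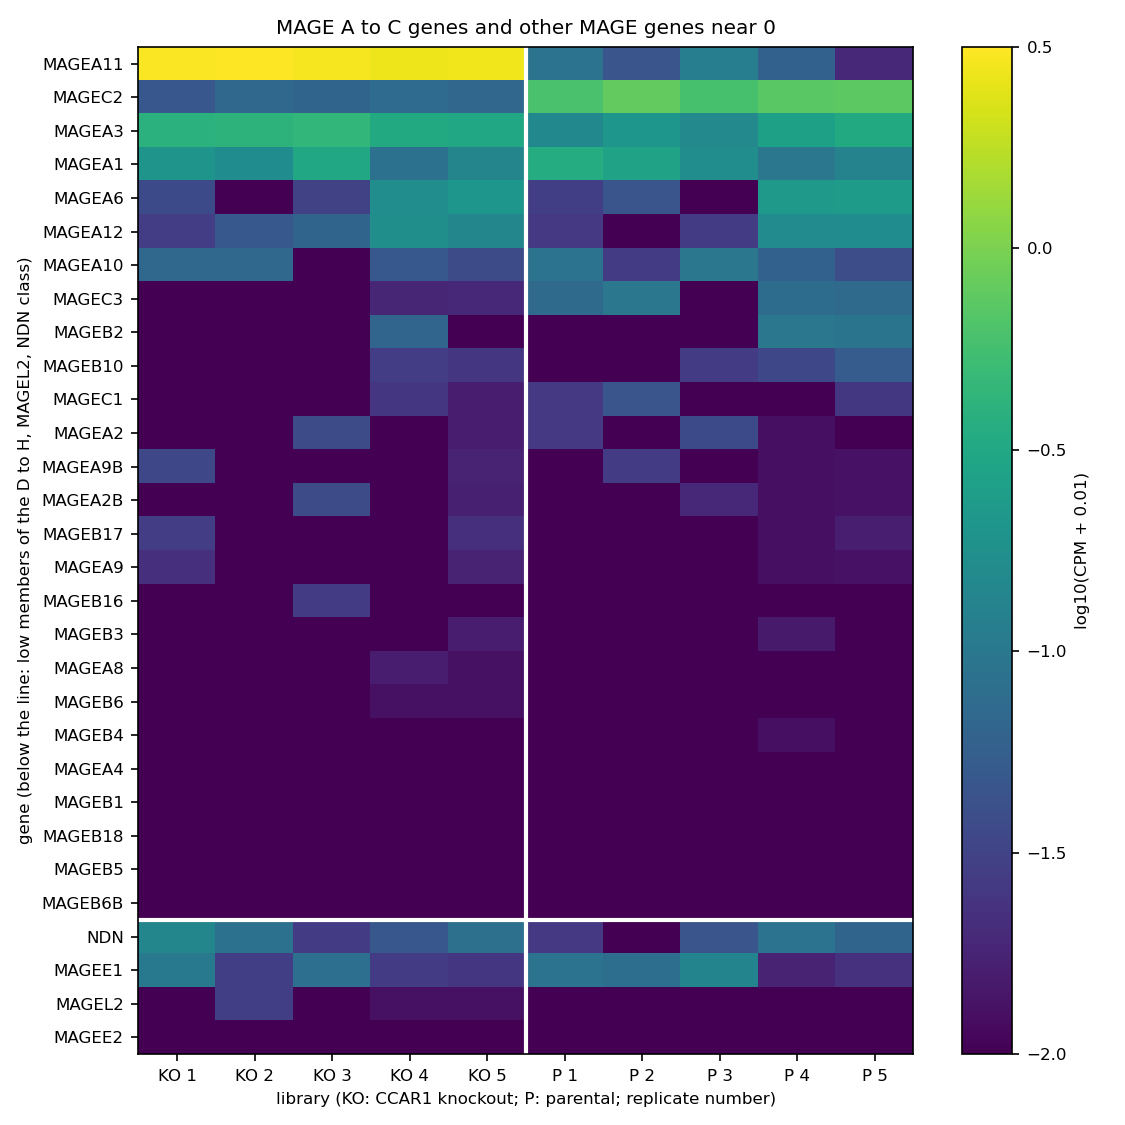
Level of the 26 germline-restricted genes and, below the white line, the 4 low widely expressed genes in each library, as log10(CPM + 0.01), with knockout libraries (KO 1 to 5) left of parental libraries (P 1 to 5). MAGEA11 is bright in the knockout columns only, MAGEC2 in the parental columns, and MAGEA6 and MAGEA12 in replicates 4 and 5 of both genotypes.

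Summed over genes, the MAGEA subfamily stood at 3.48 to 4.04 CPM in knockout and 0.548 to 0.864 CPM in parental libraries, mostly through MAGEA11 in the knockout libraries. The MAGEC subfamily summed to 0.0372 to 0.0875 CPM in knockout and 0.583 to 0.901 CPM in parental libraries, and MAGEB to at most 0.0770 and 0.132 CPM. The MAGED subfamily summed to 398 to 416 CPM in knockout and 241 to 246 CPM in parental libraries. The sums did not overlap between genotypes for MAGEA, MAGEC and MAGED. Most of the MAGEC sum came from MAGEC2 and most of the MAGED sum from MAGED1, so these sums largely repeat single-gene values. Among single genes tested, every knockout library was above every parental one for 16.0% and below for 14.6%.

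Levels of different genes were compared as CPM per kilobase of merged exon. In knockout cells the order was MAGED1 (50.2 ± 0.714), MAGEF1 (39.5 ± 4.10), MAGED2 (31.3 ± 0.944), MAGEH1 (12.2 ± 1.13), NSMCE3 (4.65 ± 0.781), MAGED4 (1.58 ± 0.162), MAGEA11 (0.859 ± 0.0750), MAGED4B (0.832 ± 0.227), MAGEA3 (0.208 ± 0.0333) and MAGEC2 (0.0271 ± 0.00505), with SD over 5 libraries. MAGEA11 and MAGED4B overlapped in that order over all 5 libraries, and the other neighbours did not overlap. In the deep knockout libraries MAGEA11 was above MAGED4B, whose level also depends on the uncertain split of reads with MAGED4. In parental cells the order was MAGED1 (27.8 ± 0.348), MAGEF1 (24.9 ± 1.68), MAGED2 (24.4 ± 0.874), MAGEH1 (3.69 ± 0.248), NSMCE3 (2.02 ± 0.106), MAGED4 (0.607 ± 0.0657), MAGEC2 (0.343 ± 0.0437), MAGED4B (0.295 ± 0.122), MAGEA3 (0.117 ± 0.0427) and MAGEA11 (0.0161 ± 0.0109). There MAGEF1 overlapped MAGED2, MAGEC2 overlapped MAGED4B, and MAGED4B overlapped MAGEA3. MAGEA11 was thus the lowest of the 10 in parental cells and MAGEC2 the lowest in knockout cells.

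The calls were also counted within each depth, and in a fit that blocked on replicate number. With the block, 8 members were called higher and 1 lower of 10 tested, against 31.1% and 30.1% of all genes. In the shallow libraries alone, 9 members were called higher and 1 lower of 11 tested, against 26.5% and 26.2% of all genes. In the deep libraries alone, 7 were called higher and 2 lower (MAGEC2 and MAGEC3) of 17 tested, against 28.9% and 28.1% of all genes. Of the widely expressed genes, only MAGED4B lost its call in the deep libraries alone, where its log2 fold change was 1.79. On chromosome X as a whole, the median log2 fold change of 481 protein-coding genes was 0.0426, with 22.2% called higher and 16.4% called lower, and it was 0.0373 without the MAGE genes.

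Partners of MAGE proteins were examined next. Of 15 tested genes for partner ligases and complexes, 2 rose and 3 fell, with a median log2 fold change of -0.12, and 3 rose and 7 fell with the replicate block. The shares of all genes called higher and lower were 19.7% and 16.9%, or 31.1% and 30.1% with the block. PJA1, the ligase that binds MAGED1, rose to 31.4 ± 1.79 CPM in knockout cells, against 18.2 ± 0.756 CPM in parental cells (SD, n = 5 each; log2 fold change 0.79, SE 0.06, adjusted p = 4.95e-06). NSMCE1, which joins NSMCE3 in the SMC5/6 complex and MAGEF1 in MMS19 turnover, had 25.5 ± 4.21 CPM in knockout and 20.5 ± 1.45 CPM in parental cells (log2 fold change 0.32, SE 0.11, adjusted p = 0.0494), just past the threshold. MMS19, whose protein is the target of MAGEF1, fell to 74.5 ± 4.13 CPM in knockout cells, against 104.4 ± 4.35 CPM in parental cells (log2 fold change -0.49, SE 0.06, adjusted p = 1.01e-04). These are RNA values, not protein, and a link to MAGEF1 was not tested. NSMCE4A, another SMC5/6 subunit, fell by 0.34 on the log2 scale (adjusted p = 0.00721), and TRIM27, the ligase paired with MAGEL2, fell by 0.18 (adjusted p = 0.0302).

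Most other cancer-testis genes were too low to test over all libraries. Of 75 listed, 74 were in the table, 16 had 0 counts throughout and 4 were tested, of which PAGE1 rose and H2BW2 fell (19.7% and 16.9% of all genes). In replicates 4 and 5 alone, 6 of the listed genes were called higher and 2 lower, against 28.9% and 28.1% of all genes in that fit. The number of listed genes tested in that fit was not counted. PAGE1, an X-linked relative of the GAGE genes, had 9.86 ± 1.14 CPM in knockout and 0.916 ± 0.189 CPM in parental cells (SD, n = 5 each; log2 fold change 3.41, SE 0.16, adjusted p = 1.45e-07). H2BW2, a testis histone, stayed below 1 CPM on average in both genotypes (0.488 ± 0.111 against 0.907 ± 0.105 CPM, adjusted p = 0.00265). SSX1, which was well expressed in both, had 23.4 ± 2.78 CPM in knockout and 20.1 ± 3.22 CPM in parental cells (log2 fold change 0.22, SE 0.12, adjusted p = 0.207). With the replicate block, SSX1 was called higher at the same log2 fold change of 0.22. Of 28 germline genes known to be silenced by promoter methylation, 3 were tested and 1, TEX19, rose at a low level (0.297 ± 0.0935 against 0.144 ± 0.0423 CPM, adjusted p = 0.0224). Its log2 fold change was 1.41 from shallow libraries and 0.33 from deep ones. The call was lost in the deep libraries alone, with limma-voom, without a filter on low counts, and without knockout replicate 1, 2 or 3 or parental replicate 4. The median log2 fold change was 0.53 over the 4 tested cancer-testis genes and -0.29 over the 3 tested germline genes.

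Genes beside the members were examined with starts within 250 kb. Of 27 tested neighbours, 8 rose and 4 fell, with a median log2 fold change of 0.20, and 10 rose and 7 fell with the replicate block. These counts stand against 19.7% of all genes called higher and 16.9% lower, or 31.1% and 30.1% with the block. USP51, a histone deubiquitinase whose start lies 37.1 kb from that of MAGEH1, rose to 2.24 ± 0.140 CPM in knockout cells, against 0.199 ± 0.0566 CPM in parental cells (SD, n = 5 each; log2 fold change 3.48, SE 0.18, adjusted p = 3.27e-07). EPHB3, an ephrin receptor 150 kb from MAGEF1, rose to 1.63 ± 0.273 CPM in knockout cells, against 0.418 ± 0.0459 CPM in parental cells (log2 fold change 1.96, SE 0.15, adjusted p = 4.19e-06). GABRA3, a GABA-A receptor subunit whose start lies 247 kb from that of MAGEA3, fell to 0.0379 ± 0.0336 CPM in knockout cells, against 1.97 ± 0.321 CPM in parental cells (log2 fold change -6.01, SE 0.42, adjusted p = 2.37e-06). Near MAGEA9B, EOLA1 fell by 0.30 on the log2 scale (adjusted p = 0.0425) while its divergent transcript EOLA1-DT rose by 0.95 (adjusted p = 2.60e-04).

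The 15q11 region, which holds the imprinted NDN and MAGEL2, gave 3 genes that rose and 4 that fell of 12 tested. The median log2 fold change was 0.0135, and 4 rose and 5 fell with the replicate block. The list also took in genes of the region that are not imprinted, among them NIPA1, NIPA2 and CYFIP1, so the counts are not those of imprinted genes. Among all genes, 19.7% were called higher and 16.9% lower, or 31.1% and 30.1% with the block. SNRPN, a paternally expressed gene, rose to 46.3 ± 8.49 CPM in knockout cells, against 25.9 ± 2.88 CPM in parental cells (SD, n = 5 each; log2 fold change 0.84, SE 0.13, adjusted p = 6.66e-04). MKRN3, next to MAGEL2, had 5.58 ± 0.615 CPM in knockout and 4.15 ± 0.438 CPM in parental cells (log2 fold change 0.43, SE 0.11, adjusted p = 0.00880). ATP10A rose to 1.38 ± 0.303 CPM in knockout cells, against 0.385 ± 0.123 CPM in parental cells (log2 fold change 1.84, SE 0.24, adjusted p = 1.75e-04). NIPA1, NIPA2 and CYFIP1, at the proximal edge of the region, fell by 0.52, 0.42 and 0.32 on the log2 scale (adjusted p = 8.58e-04, 0.00133 and 0.00559). NDN and MAGEL2 stayed near 0 in both genotypes while these neighbours were expressed.

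**Figure D5:**
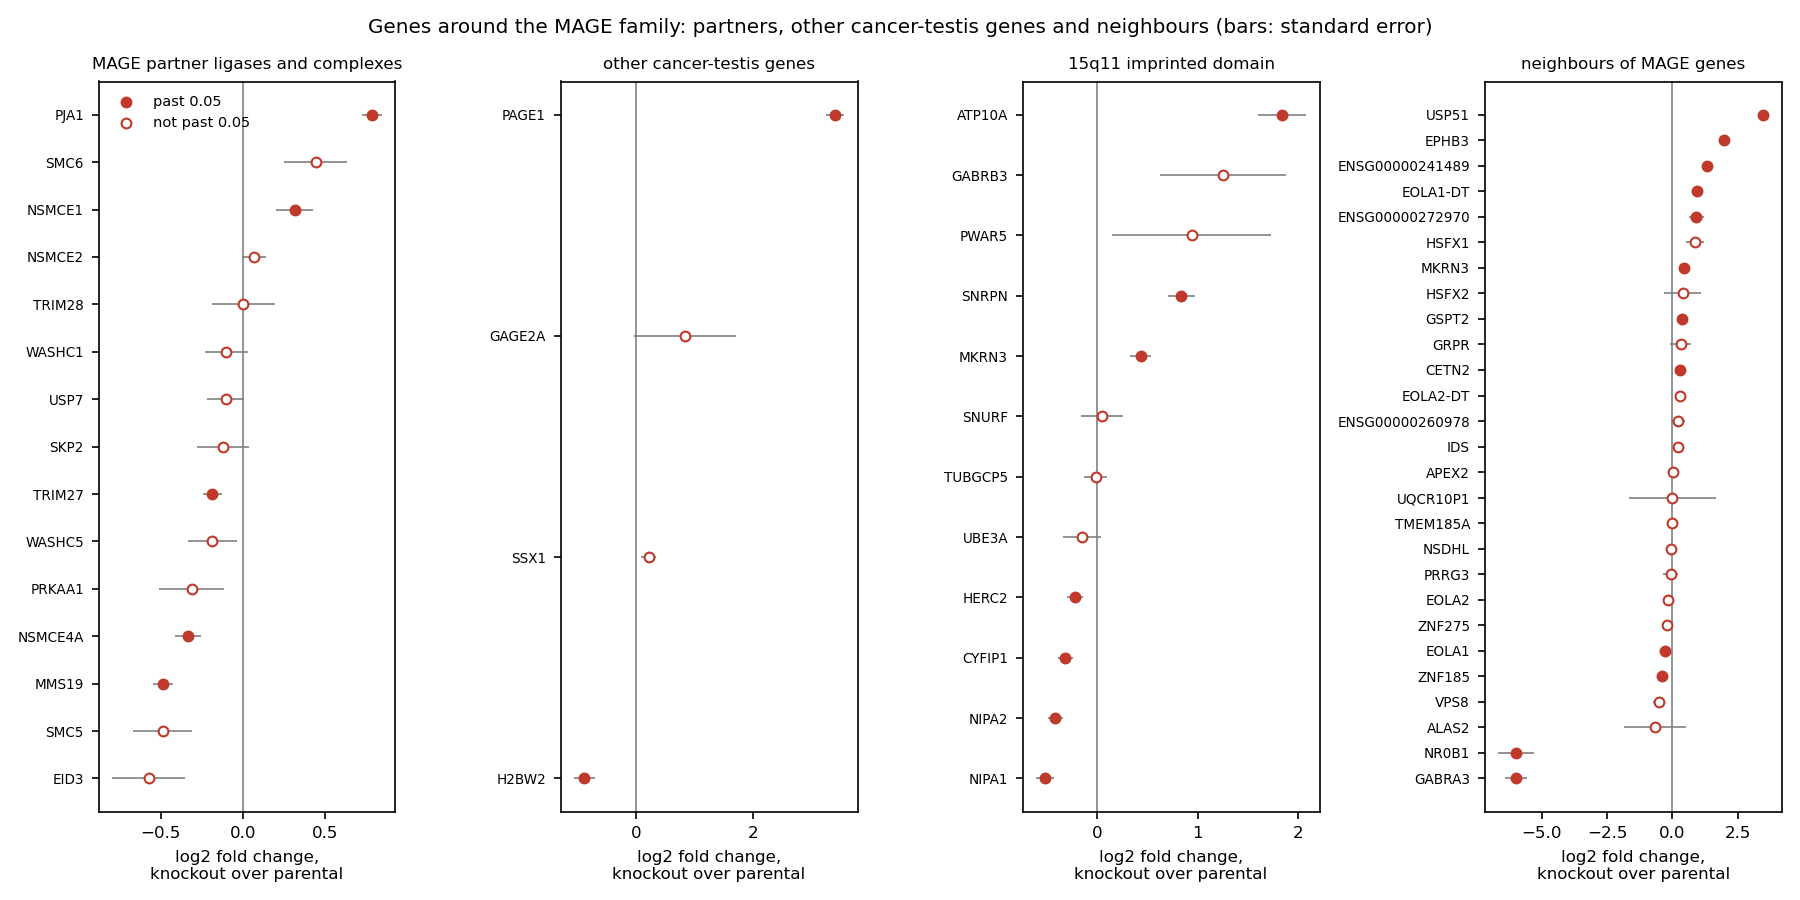
Log2 fold change (CCAR1 knockout over parental, bars for the standard error) of tested partner ligases and complexes, other cancer-testis genes, 15q11 genes and neighbours of MAGE genes, each panel on its own axis, filled where the adjusted p was past 0.05. PAGE1 (3.41) and USP51 (3.48) lie farthest to the right and GABRA3 (-6.01) farthest to the left.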

How the data were processed

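The deposited table gives each gene's estimated count in each library, unscaled, for 5 CCAR1 knockout and 5 parental samples. Per the submitters' processing notes the authors ran kallisto 0.48.0 on hg38. Not given in the sources used here are the annotation, the way transcripts were combined by gene and any use of strand. Overlapping genes and antisense partners may therefore share reads. Groups and replicate numbers come from the sample titles.

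The estimated counts were rounded, filtered with filterByExpr by genotype, scaled by TMM and tested with edgeR 4.0.16 (quasi-likelihood, robust) in R 4.3.3, with Benjamini-Hochberg adjustment over 18979 genes and a threshold of 0.05; all adjusted p-values are from this fit. CPM divides the deposited estimated counts by the TMM-scaled library size. The same fit recovered changes placed in simulated counts. In those counts a small part of the genes was raised and none was lowered. They did not carry the differences in transcripts between shallow and deep libraries, so they do not test the fit on that point. Total counts ranged from 52595742 to 385449633, and intervals and floors cover counting error only. Replicates of a genotype at the same depth gave chi-square values per gene of 6.95 to 26.5, above what sampling of counts alone gives, and all were kept as separate replicates.

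Same-numbered samples of the 2 genotypes deviated together (correlations 0.584 to 0.899), which met the rule for taking the numbers as pairs, and the fit with a block is given where it changed a call. Differently numbered samples of the same depth correlated as highly (0.594 to 0.901), so the correlations follow depth and do not single out the replicate number. Positions, exon lengths and shared 31-base stretches came from GENCODE v29 (GRCh38), which matched 95.1% of tested genes by ID. The members and gene lists were chosen with earlier results of these data known. Members that passed the filter are named, with every library for those that reached 1 CPM on average in a genotype and for MAGEA3 and MAGEC2; in other lists, the 3 smallest adjusted p in each direction at 1 CPM or more are named, and H2BW2, SSX1, TEX19 and ENTREP2 were named after their values were seen. Alternatives were DESeq2 1.42.0, limma-voom (limma 3.58.1), other scalings and filters, a depth term, each depth alone, subtraction of the chromosome median and leaving out each library.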

Additional observations from a re-analysis of the deposited data

How the results depend on the processing

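Over 207 alternative fits of the 10 tested members' log2 fold changes, 193 kept their direction and call, 14 kept the direction and lost the call, and none reversed. Of the 14, 13 were MAGEA3 and 1 was MAGED4B (1.79 in replicates 4 and 5 alone). Leaving out 1 library gave MAGEA3 0.66 to 0.97, and its call was lost without knockout replicate 1, 2 or 3 or parental replicate 1, 2, 3 or 4. Subtracting the median of the chromosome, an alternative without a test that was chosen after seeing the data, moved each member by less than its SE.

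Germline-restricted members called higher came to 1 without a filter, at 1 CPM or more in 5 libraries, with DESeq2, with limma-voom, with the replicate block, in replicates 4 and 5 alone and with near-identical members summed (1 to 2 with 1 library left out). Those called lower came to 2 without a filter, 0 at 1 CPM or more and 2 in replicates 4 and 5 alone.

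Partner genes called higher came to 1 with DESeq2 size factors, without a filter and with limma-voom, and 4 in replicates 4 and 5 alone (1 to 2 with 1 library left out). Those called lower came to 5 with DESeq2, 7 with the replicate block, 9 with a depth term, 6 in replicates 1 to 3 alone and 11 in replicates 4 and 5 alone. Other cancer-testis genes called higher came to 2 without a filter, 2 with the replicate block, 3 with a depth term, 2 in replicates 1 to 3 alone and 6 in replicates 4 and 5 alone; those called lower came to 0 at 1 CPM or more and 2 in replicates 4 and 5 alone. Methylation-silenced germline genes called higher came to 0 without a filter, at 1 CPM or more, with limma-voom and in replicates 4 and 5 alone, and 2 in replicates 1 to 3 alone (0 to 1 with 1 library left out); those called lower came to 1 with a depth term and 2 in replicates 4 and 5 alone. 15q11 genes called higher came to 5 in replicates 4 and 5 alone. Neighbours called higher came to 14 in replicates 4 and 5 alone. Neighbours called lower came to 2 with library size only, 1 at 1 CPM or more, 7 with the replicate block, 7 with a depth term and 11 in replicates 4 and 5 alone (2 to 4 with 1 library left out). The cause was not tested. Over all genes, 28.9% were called higher and 28.1% lower in replicates 4 and 5 alone. In replicates 1 to 3 alone these shares were 26.5% and 26.2%, and with the replicate block 31.1% and 30.1%. For the other alternative fits, here and for the germline-restricted members, the shares are not given. Nor is the number of listed genes tested under another filter or at each depth alone. The counts are therefore not read as results about the lists.

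Scaling moved the median of all genes by less than 0.1 on the log2 scale. Depth limits the members near 0: in the shallow libraries at most 6 counts lay behind the parental MAGEA11 values.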
